A study of Mus musculus with 18 samples.

Results

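The 5 genes described here encode the neurohypophysial hormones vasopressin (Avp) and oxytocin (Oxt) and 3 of their receptors: Oxtr, the oxytocin receptor, and Avpr1a and Avpr1b, the vasopressin 1a and 1b receptors. They were chosen by symbol, with earlier results of these data known, and all 5 were found among the 23235 gene symbols listed in every library. RNA was sequenced from the arcuate nucleus, a hypothalamic region above the median eminence, of C57/BL female mice whose ovaries had been removed. All groups share that surgery. The 6 groups, of 3 libraries each (n = 3 throughout, 18 in all), were KIKO E2, KIKO oil, ERKO E2, ERKO oil, WT E2 and WT oil. E2 animals received estradiol benzoate, 250 ng at day 5 after surgery and 1500 ng at day 6, and oil animals received oil on the same days. Tissue was taken 24 h after the second injection and a 1 h fast. WT mice are wild type, ERKO mice are labelled as ERα knockout, and KIKO mice are labelled as ERα KIKO. As the name is generally used, KIKO mice carry over a null allele a knocked-in receptor that cannot bind estrogen response elements (EREs), and the series title asks which estradiol signals need those elements. The labels give no age, no account of how the alleles were built and no number of animals per library, so p-values here measure the spread between libraries, which may be technical.

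Vasopressin and oxytocin are made mainly by large neurons of the paraventricular and supraoptic nuclei, whose axons run through the median eminence to the posterior pituitary. Vasopressin is also made in the suprachiasmatic nucleus, the circadian clock of the hypothalamus. Each hormone is cut from a precursor that also holds a neurophysin, a carrier protein. The receptors are G protein-coupled, and Oxtr and Avpr1a act through Gq and phospholipase C. Oxtr is a textbook estrogen-induced gene in the uterus and in several forebrain nuclei, while Avpr1b is best known from corticotrophs of the anterior pituitary and from hippocampal area CA2.

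The hormone genes are neighbours. On GRCm38, in the GENCODE annotation, Oxt lies at chr2:130576173-130577054 on the + strand and Avp at chr2:130580620-130582554 on the - strand, with 3565 bases between them, and each has 3 exons. The stretches that encode the hormones themselves are in exon 1 of each gene, at chr2:130582446-130582472 for Avp and chr2:130576267-130576293 for Oxt. They are shown because they are where the code for the hormone itself differs between the genes. Both are 27 bases long and are written on the coding strand, with the bases that differ in capitals.
Avp hormone stretch: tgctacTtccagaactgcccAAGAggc
Oxt hormone stretch: tgctacAtccagaactgcccCCTGggc
Of the 27 positions, 22 were the same. Counted from 1 at the 5′ end, with the Avp base first, the 5 substitutions were T7A, A21C, A22C, G23T and A24G.

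Exon 2, which encodes the core of the neurophysin, holds a longer identity. A run of 127 bases was the same in both transcripts, of which 125 lie in exon 2, at chr2:130581133-130581257 for Avp and chr2:130576591-130576715 for Oxt. It is shown because fragments from inside it cannot be assigned to either gene by sequence alone.
Avp and Oxt shared stretch: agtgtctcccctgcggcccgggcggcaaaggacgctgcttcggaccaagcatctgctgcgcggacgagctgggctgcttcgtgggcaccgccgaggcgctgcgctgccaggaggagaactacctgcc
Windows of 50 bases common to both covered 22.0% of the 577-base Avp transcript and 23.7% of the 537-base Oxt transcript. How the authors' counting treated such fragments is not given in the sources used here, so the split of reads between the genes is uncertain to that extent.

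Oxtr lies at chr6:112473683-112489943 on the - strand, Avpr1a at chr10:122448499-122453452 on the + strand and Avpr1b at chr1:131599239-131612000 on the + strand. RefSeq sequence upstream of the start site was given for 4 of the 5 genes (GRCm38.p6). The 250 bases before the start are shown for the gene that changed with estradiol, Oxtr, and for the neighbouring hormone genes, whose values moved together. Capitals mark matches to GGTCA or to its other strand, TGACC, the half-site of an ERE.
Oxtr, chr6:112489826-112490075, - strand: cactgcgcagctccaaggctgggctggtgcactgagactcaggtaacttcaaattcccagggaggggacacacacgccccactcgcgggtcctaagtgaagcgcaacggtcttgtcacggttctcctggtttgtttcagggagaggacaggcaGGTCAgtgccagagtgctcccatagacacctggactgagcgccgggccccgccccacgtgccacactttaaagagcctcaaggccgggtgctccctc
Oxt, chr2:130575919-130576168, + strand: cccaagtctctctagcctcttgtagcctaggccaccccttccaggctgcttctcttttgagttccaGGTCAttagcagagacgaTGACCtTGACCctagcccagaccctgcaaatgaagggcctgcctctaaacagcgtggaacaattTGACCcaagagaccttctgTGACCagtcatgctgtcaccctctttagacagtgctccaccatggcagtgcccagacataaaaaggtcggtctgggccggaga
Avp, chr2:130582589-130582838, - strand: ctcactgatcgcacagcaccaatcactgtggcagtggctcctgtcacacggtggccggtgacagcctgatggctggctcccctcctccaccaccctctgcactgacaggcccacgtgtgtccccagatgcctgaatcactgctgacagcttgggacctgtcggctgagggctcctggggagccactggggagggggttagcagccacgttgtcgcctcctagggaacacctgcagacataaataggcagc
The half-site was found 1 time before the RefSeq start of Oxtr, at position -97. It was found 5 times before Oxt, at -184, -166, -160, -102 and -83, with no overlap between matches. It was found 0 times before Avp and 0 times before Avpr1a. The 2 annotations differ on where Oxtr starts. The GENCODE gene reaches to chr6:112489943, so part of the Oxtr window, with its half-site, lies inside the gene as GENCODE places it. Of 32851 mouse promoters of the same length, 35.2% held at least 1 half-site and 14 (0.0426%) held 5 or more. The full element GGTCANNNTGACC was found before none of the 4 genes, and in 21 of the 32851 promoters (0.0639%). These are letter matches in one window, and they say nothing about binding.

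The values are FPKM, which divide the fragments of a gene by transcript length and by library depth, so levels of different genes are compared per length. The confidence bounds deposited beside each value imply whole fragment numbers for Oxtr and Avpr1a, within 0.1, in 36 of 36 values. On that count Avp rested on 5055 to 49185 fragments per library, Oxt on 3964 to 24389, Oxtr on 87 to 612, Avpr1a on 98 to 251 and Avpr1b on 0 or 1. Summed FPKM ran from 418191 to 492135 in 17 libraries and was 628541 in ERKO E2 3. Across tested genes that library correlated with the others at 0.919 to 0.954, against 0.963 to 0.995 among the other 17. Hormone comparisons that hold ERKO E2 are also given without it. Esr1, the targeted gene, had 2.85 to 4.08 FPKM in KIKO libraries, 0.212 to 2.39 FPKM in ERKO libraries and 3.45 to 11.9 FPKM in WT libraries. It was not 0 in ERKO, and FPKM does not separate an intact transcript from an altered one. All 14 arcuate markers examined were above the filter, and their summed level was 2578 to 6022 FPKM. Bulk values cannot tell fewer cells of a type from less RNA per cell.

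Avp and Oxt were among the most abundant messages in this arcuate tissue. Avp ranked from 1 to 22 among all symbols and made up 0.210% to 2.09% of the summed FPKM of a library. Oxt ranked from 2 to 24 and made up 0.194% to 1.18%. The receptors were scarce by comparison, with Oxtr at 1.52 to 9.54 FPKM and Avpr1a at 2.77 to 4.29 FPKM. Avpr1b was at or near 0.

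Avp had 2929, 2067 and 3321 FPKM in KIKO E2 libraries and 1561, 2063 and 2920 FPKM in KIKO oil libraries. It had 3345, 3684 and 13107 FPKM in ERKO E2 libraries and 907, 2030 and 2901 FPKM in ERKO oil libraries. It had 3427, 2175 and 2569 FPKM in WT E2 libraries and 4581, 4266 and 2532 FPKM in WT oil libraries. ERKO E2 3 was the highest of all 18 and ERKO oil 1 the lowest, a range of 14.5-fold, or 5.05-fold without ERKO E2 3. By group mean the order was ERKO E2 (6712 ± 5541 FPKM, SD), WT oil (3793 ± 1103), KIKO E2 (2772 ± 642), WT E2 (2724 ± 640), KIKO oil (2181 ± 687) and ERKO oil (1946 ± 999.9). Each group in that order overlapped the next.

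Oxt had 1583, 894 and 1778 FPKM in KIKO E2 libraries and 1072, 1044 and 1425 FPKM in KIKO oil libraries. It had 1595, 1648 and 7392 FPKM in ERKO E2 libraries and 836, 1429 and 1391 FPKM in ERKO oil libraries. It had 2089, 1778 and 1780 FPKM in WT E2 libraries and 2684, 2714 and 1915 FPKM in WT oil libraries. The extremes were the same libraries as for Avp, ERKO E2 3 and ERKO oil 1, with a range of 8.84-fold, or 3.25-fold without ERKO E2 3. By group mean the order was ERKO E2 (3545 ± 3332 FPKM, SD), WT oil (2437 ± 453), WT E2 (1882 ± 179), KIKO E2 (1418 ± 465), ERKO oil (1218 ± 332) and KIKO oil (1180 ± 212). The highest KIKO E2 and the lowest WT E2 library met at 1778 FPKM, and every other group overlapped its neighbour.

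**Figure D1:**
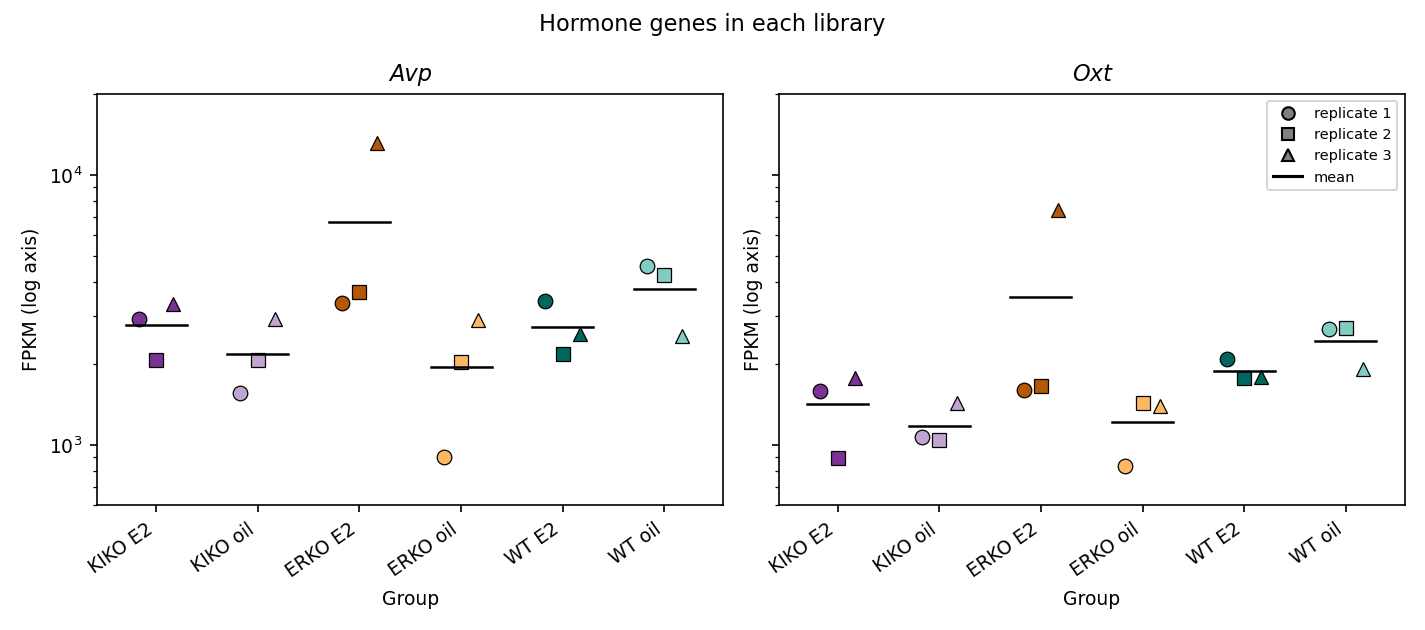
FPKM of Avp (left) and Oxt (right) in each of the 18 libraries on a log axis, by group, with 1 point per library and a line at the group mean. ERKO E2 3 stands above every other library, at 13107 FPKM of Avp and 7392 FPKM of Oxt, and ERKO oil 1 is the lowest for both, at 907 and 836 FPKM.

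Neither hormone gene passed the threshold (adjusted p under 0.05) in any of the 12 comparisons, which were fitted without library weights over 14774 genes with limma on log2(FPKM + 1) and adjusted by Benjamini-Hochberg. The log2 changes below are on that scale, ± SE of the fit. In ERKO mice, E2 against oil gave 1.64 ± 0.49 for Avp (unadjusted p = 0.00407) and 1.18 ± 0.45 for Oxt (unadjusted p = 0.0187), with an adjusted p of 0.473 for each. The ERKO E2 libraries lay above the ERKO oil libraries for both genes, and 12.3% of all genes tested were apart in this comparison. Without ERKO E2 3 the changes were 1.01 for Avp and 0.45 for Oxt, with adjusted p = 1 for each. Of 4 members tested, 0 passed in ERKO and 2 had an unadjusted p under 0.05. Among all genes 0 of 14774, or 0%, passed and 1068 had an unadjusted p under 0.05.

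In the other genotypes the changes were smaller by value. E2 against oil gave 0.37 ± 0.49 for Avp and 0.22 ± 0.45 for Oxt in KIKO mice (adjusted p = 1 for each), and -0.46 ± 0.49 and -0.36 ± 0.45 in WT mice (adjusted p = 0.857 and 0.890). The intervals were wide, at -0.67 to 1.40 for Avp in KIKO and -1.49 to 0.58 for Avp in WT (95%). In KIKO 0 of 4 members passed, with 0 at an unadjusted p under 0.05, against a background of 0.00677% of all genes.

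Under oil, Oxt was lower in both mutant genotypes than in WT by value, without passing the threshold. The change was -1.04 ± 0.45 in KIKO oil against WT oil (unadjusted p = 0.0347, adjusted p = 0.441) and -1.02 ± 0.45 in ERKO oil against WT oil (unadjusted p = 0.0377, adjusted p = 0.206). All 3 libraries of each mutant group lay below the 3 WT oil libraries, which both comparisons share. Groups were apart in this way for 21.9% of all genes in KIKO oil against WT oil and for 39.3% in ERKO oil against WT oil. With ERKO E2 3 out of the fit, the Oxt changes were the same and passed, at adjusted p = 0.0452 and 0.0113. Among all 14774 genes, 268 and 3319 passed in that fit. The ERKO oil difference also passed with library weights (-1.01, adjusted p = 0.0356) and with only the groups compared in the fit (adjusted p = 0.0330). In those fits 2932 and 1661 of all 14774 genes passed for ERKO oil against WT oil, so passing there was common. With the level of short against long transcripts, described below, as a term in the model, the ERKO oil difference was -0.39 (adjusted p = 0.316). The KIKO oil difference was then -0.73 (adjusted p = 0.111). Among all 14774 genes, 1319 passed for ERKO oil and 144 for KIKO oil against WT oil in that fit. All ERKO oil libraries lay below all WT oil libraries on that level. The fit therefore cannot tell the ERKO genotype from that level. Avp gave -0.80 ± 0.49 (adjusted p = 0.621) and -1.07 ± 0.49 (adjusted p = 0.218) in the same comparisons, and its groups overlapped. Of 4 members, 0 passed in either comparison, with 1 and 2 at an unadjusted p under 0.05, against 0.0135% and 1.43% of all genes past the threshold.

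Under E2, Avp gave 0.02 ± 0.49 and Oxt -0.46 ± 0.45 in KIKO E2 against WT E2, and 1.03 ± 0.49 and 0.52 ± 0.45 in ERKO E2 against WT E2. The adjusted p values ran from 0.443 to 0.990. The ERKO values rest on ERKO E2 3: without it Avp gave 0.39 and Oxt turned to -0.21 (adjusted p = 0.620 and 0.684). KIKO E2 against ERKO E2 gave -1.002 ± 0.49 for Avp and -0.98 ± 0.45 for Oxt (adjusted p = 0.788 for each). Without ERKO E2 3 these were -0.37 and -0.25 (adjusted p = 1 for each). The Avp groups were just apart, at 3321 FPKM in the highest KIKO E2 library and 3345 FPKM in the lowest ERKO E2 library, as were 5.5% of all genes. Of 4 members 0 passed there, with 1 at an unadjusted p under 0.05, against 0.0135% of all genes. Under oil the same genotypes gave 0.27 ± 0.49 for Avp and -0.02 ± 0.45 for Oxt (adjusted p = 0.998 and 0.999), with 0 of 4 members past the threshold and 0 at an unadjusted p under 0.05, against 0% of all genes.

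The values of Avp and Oxt rose and fell together from library to library. Both transcripts are short and hold the shared stretch shown above. The part that transcript length and shared fragments had in this was not tested. Across the 18 libraries their log2(FPKM + 1) correlated at Pearson's r = 0.917 and Spearman's rho = 0.767 (two-sided permutation tests with 100000 resamples, p = 1e-05, the smallest they can give, and 0.00042). Over the 9 relations examined, the adjusted p was 9e-05 for r and 0.00378 for rho. Without the libraries farthest from the Avp median, ERKO E2 3 and ERKO oil 1, r was 0.786 (n = 16). Taken as deviations from the 6 group means, with values permuted within groups, r was 0.912 (permutation p = 0.00075). The ratio of Avp to Oxt therefore varied less than either gene, from 1.08 in ERKO oil 1 to 2.31 in KIKO E2 2. It was 1.85, 2.31 and 1.87 in KIKO E2, 1.46, 1.98 and 2.05 in KIKO oil, 2.10, 2.24 and 1.77 in ERKO E2, 1.08, 1.42 and 2.09 in ERKO oil, 1.64, 1.22 and 1.44 in WT E2, and 1.71, 1.57 and 1.32 in WT oil.

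**Figure D2:**
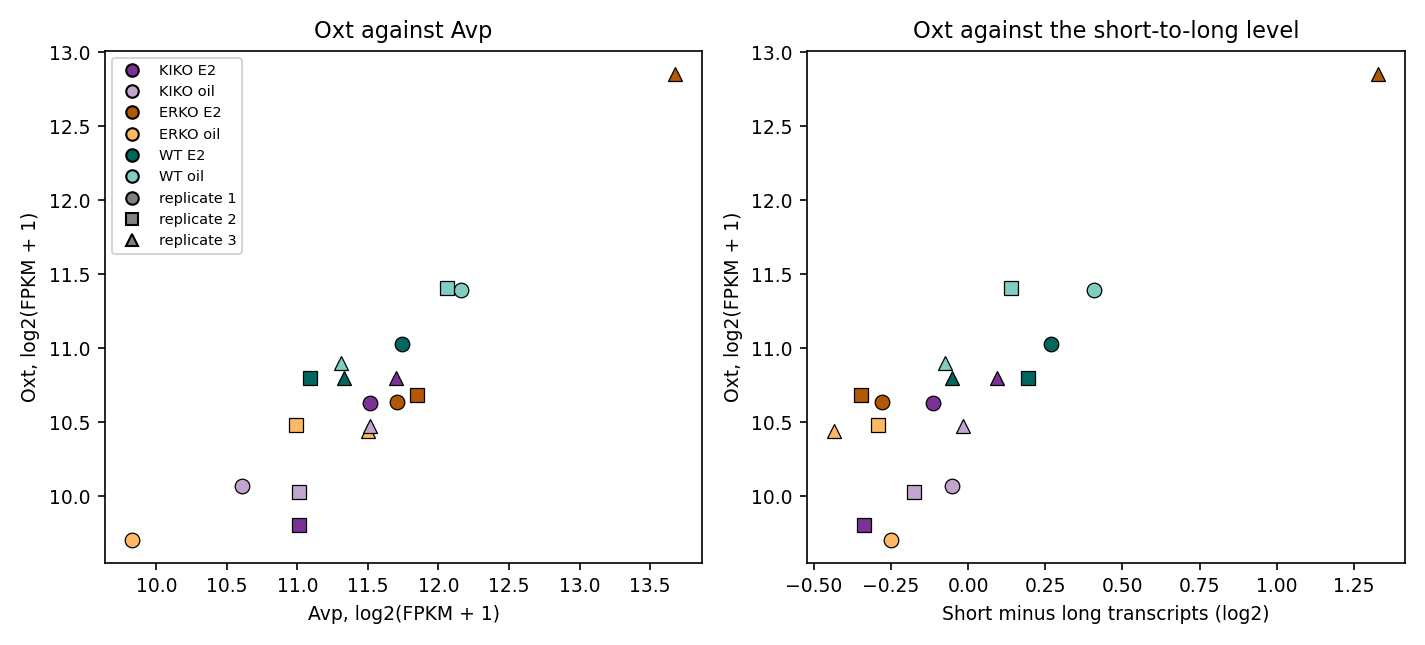
Left, Oxt against Avp, both as log2(FPKM + 1), and right, Oxt against the level of short over long transcripts, with 1 point per library coloured by group. Pearson's r was 0.917 on the left and 0.870 on the right, and ERKO E2 3 lies at the upper right of both.

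The abundance of both hormones in arcuate dissections was set beside markers of the nuclei that make them. The 13 magnocellular and paraventricular markers, among them the transcription factors Sim1 and Otp and the thyrotropin-releasing hormone gene Trh, summed to 307 to 411 FPKM in every library. Calb2, Calb1 and Arnt2 had the highest medians of the list, at 116, 74.6 and 44.9 FPKM. Sim1 had a median of 1.19 FPKM, so the sum says little about it. Their mean log2 level did not follow the hormones across libraries, with r = -0.02 and rho = 0.0093 for Avp (permutation p = 0.950 and 0.973) and r = -0.28 and rho = -0.37 for Oxt (permutation p = 0.271 and 0.126). Without the 2 libraries farthest from each hormone's median, r was 0.031 and -0.36. That mean does not speak for each gene of the list, and single genes were not tested against the hormones. Otp was lowest, at 11.7 FPKM, in ERKO E2 3, the library richest in both hormones. Sim1, Scgn and Brs3, of the same list, were highest there, at 1.82, 15.9 and 5.37 FPKM. Trh, at 45.2 FPKM in that library, was at neither extreme. Sim1 was lowest in WT E2 2, KIKO oil 1 and ERKO oil 1 (0.608, 0.631 and 0.655 FPKM), which held 2175, 1561 and 907 FPKM of Avp. It was also low, at 0.903 FPKM, in WT oil 2, which held 4266 FPKM of Avp. The suprachiasmatic markers varied far more, from 72.6 to 330 FPKM in sum. The lowest sums were 72.6 FPKM in ERKO E2 3, 81.6 FPKM in KIKO E2 3 and 89.2 FPKM in WT oil 2. Vip, the peptide gene of the suprachiasmatic core, had 4.44, 7.47 and 1.79 FPKM in those libraries against 29.1 to 117 FPKM in the other 15. Nms, a peptide gene of the same list, did not split in that way. It had 10.3, 7.27 and 22.6 FPKM in those libraries against 9.45 to 46.5 FPKM in the other 15.

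The libraries with the lowest suprachiasmatic sums were not poor in Avp, although that nucleus makes vasopressin. They held 13107, 3321 and 4266 FPKM of Avp. The mean log2 level of the 12 suprachiasmatic markers correlated negatively with Avp (r = -0.65, permutation p = 0.00195, adjusted 0.00439, rho = -0.47, permutation p = 0.0506) and with Oxt (r = -0.69, permutation p = 0.00147, adjusted 0.00439, rho = -0.61, permutation p = 0.00904). Without the 2 libraries farthest from each hormone's median r was -0.42 and -0.46 (permutation p = 0.106 and 0.0685), so the relations rest in part on those libraries. The part that the cut of the tissue had in the hormone values was not tested. Pituitary markers summed to 4.07 to 367 FPKM. Of these, Cga, the glycoprotein hormone alpha subunit, had a median of 135 FPKM and reached 307 FPKM, Tshb reached 41.9 FPKM, Lhb reached 31.5 FPKM and Pitx1 reached 19.3 FPKM. Prl was at 0 in 17 libraries and Gh at 0 in 16.

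ERKO E2 3 differed from the other libraries by transcript length. Its log2(FPKM + 1) minus the mean of ERKO E2 1 and ERKO E2 2 had a median of 1.27 over the 228 genes whose longest transcript is up to 700 bases, and of -0.73 over the 1792 genes with more than 6000 bases. Avp, with 577 bases, was 1.90 higher in ERKO E2 3, and 22 of those 228 short genes were higher still. Oxt, with 537 bases, was 2.19 higher, and 6 of the 228 were higher still. The receptor genes were lower in ERKO E2 3, at -0.35 for Oxtr (4704 bases) and -0.12 for Avpr1a (2670 bases). The median was -0.25 over genes of 3000 to 6000 bases and 0.24 over genes of 1500 to 3000 bases. Avpr1a thus lay on the other side of 0 from the median of its class.

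**Figure D3:**
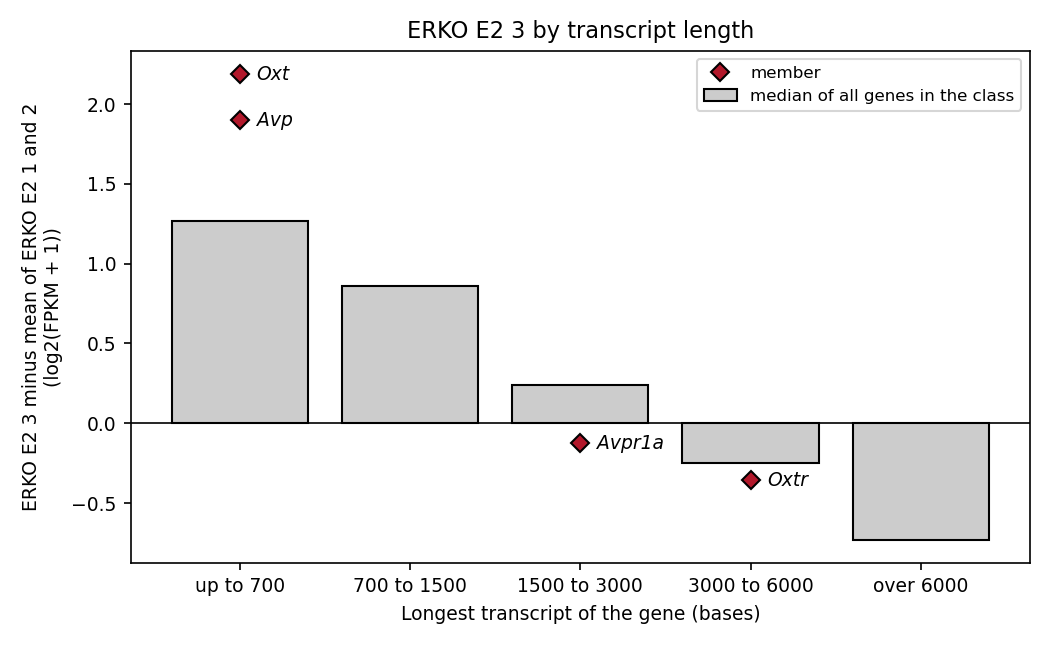
Difference of ERKO E2 3 from the mean of ERKO E2 1 and 2, in log2(FPKM + 1), by length of the longest transcript, with bars at the median of all tested genes in a class and diamonds at the members. The medians go down from 1.27 in the shortest class to -0.73 in the longest, and Oxt and Avp lie above the median of theirs at 2.19 and 1.90.

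The same axis ran through the other libraries. The median of 1732 genes with transcripts of up to 1500 bases, less that of 1792 genes over 6000 bases, as deviations from each gene's mean, was -0.34 to 0.10 in KIKO E2, -0.18 to -0.02 in KIKO oil, -0.35 to 1.33 in ERKO E2, -0.43 to -0.25 in ERKO oil, -0.05 to 0.27 in WT E2 and -0.08 to 0.41 in WT oil. All ERKO oil libraries thus lay below all WT oil libraries. Oxt followed this level at r = 0.870 (permutation p = 7e-05, adjusted 0.000315) and rho = 0.719 (permutation p = 0.00129), and at r = 0.586 without the 2 libraries farthest from its median (permutation p = 0.0167). Avp followed it at r = 0.739 (permutation p = 0.003, adjusted 0.0054) and rho = 0.467 (permutation p = 0.0540), and at r = 0.256 without those 2 (permutation p = 0.344), so that relation rests on them. Oxtr and Avpr1a gave r = 0.055 and -0.26 (permutation p = 0.814 and 0.334), with rho = 0.102 and -0.28 (permutation p = 0.685 and 0.256). Without the 2 libraries they gave r = 0.548 and -0.51 (unadjusted permutation p = 0.0270 and 0.0461). By rank these were rho = 0.341 and -0.48 (unadjusted permutation p = 0.195 and 0.0612). These relations and this level were chosen after the values had been seen.

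Oxtr rose with E2 in WT mice, and was the only one of the 4 members tested to pass the threshold in the unweighted fit of all 18 libraries. It had 6.14, 9.54 and 6.78 FPKM in WT E2 libraries, against 2.05, 1.52 and 3.41 FPKM in WT oil libraries. Every WT E2 library lay above every WT oil library, and 15.8% of all genes were apart in this comparison. The group means were 7.49 ± 1.80 FPKM and 2.33 ± 0.976 FPKM (SD), a ratio of 3.22, and the log2 change was 1.37 ± 0.21 (95% interval 0.93 to 1.81, limma adjusted p = 0.00269). All 17 alternatives kept this call, with changes of 1.19 to 1.69. Of 4 members 1 passed, against 0.785% of all genes.

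In the mutant genotypes Oxtr did not pass with E2. It had 1.57, 2.08 and 2.69 FPKM in KIKO E2 libraries, against 1.92, 2.59 and 1.98 FPKM in KIKO oil libraries, and the groups overlapped. It had 2.06, 2.54 and 1.58 FPKM in ERKO E2 libraries, against 1.84, 1.78 and 1.95 FPKM in ERKO oil libraries, which again overlapped. The change with E2 was -0.03 ± 0.21 in KIKO (95% interval -0.47 to 0.41, adjusted p = 1) and 0.09 ± 0.21 in ERKO (-0.35 to 0.53, adjusted p = 0.826). The upper bounds of both intervals lie below the lower bound of the WT change.

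Between genotypes, Oxtr was lower in both mutants than in WT under E2. The change was -1.44 ± 0.21 for KIKO E2 against WT E2 (adjusted p = 0.00194) and -1.46 ± 0.21 for ERKO E2 against WT E2 (adjusted p = 0.00116). The KIKO E2 and ERKO E2 libraries all lay below the lowest WT E2 library, and groups were apart for 21.9% and 11% of all genes in these comparisons. Both share the WT E2 libraries with the E2 comparison in WT, so the 3 results are not independent. In each, 1 of 4 members passed, against 0.948% and 1.3% of all genes. The ERKO call was lost with only the ERKO E2 and WT E2 groups in the fit (adjusted p = 0.127) and kept without any single library (adjusted p up to 0.0114). KIKO E2 against ERKO E2 gave 0.02 ± 0.21 (95% interval -0.42 to 0.46, adjusted p = 0.974). Under oil, KIKO and ERKO gave -0.04 ± 0.21 and -0.18 ± 0.21 against WT (adjusted p = 0.965 and 0.622). KIKO oil against ERKO oil gave 0.14 ± 0.21 (adjusted p = 0.998).

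The differences in the E2 response themselves missed the threshold. The Oxtr response of KIKO minus that of WT was -1.40 ± 0.29 (95% interval -2.02 to -0.78, unadjusted p = 0.000211, adjusted p = 0.0919), and that of ERKO minus WT was -1.28 ± 0.29 (-1.90 to -0.66, unadjusted p = 0.000487, adjusted p = 0.105). The KIKO difference passed without ERKO E2 3 (adjusted p = 0.0455), and both passed without WT oil 3 (adjusted p = 0.0214 and 0.0213), the WT oil library with the highest Oxtr. The response of KIKO minus ERKO was -0.12 ± 0.29 (-0.74 to 0.50, adjusted p = 0.883). Of 4 members 0 passed in each, with 1, 3 and 0 at an unadjusted p under 0.05, against 0.135%, 0.278% and 0% of all genes. For Avp and Oxt the response of KIKO minus WT was 0.82 ± 0.69 and 0.58 ± 0.64 (adjusted p = 0.999 for each). Their response of ERKO minus WT was 2.10 ± 0.69 and 1.54 ± 0.64 (adjusted p = 0.253 and 0.353). Without ERKO E2 3 it was 1.46 and 0.81 (adjusted p = 0.303 and 0.362). The response of KIKO minus ERKO was -1.27 ± 0.69 for Avp and -0.96 ± 0.64 for Oxt (adjusted p = 0.746 for each), and -0.64 and -0.23 without that library (adjusted p = 0.9997 for each).

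**Figure D4:**
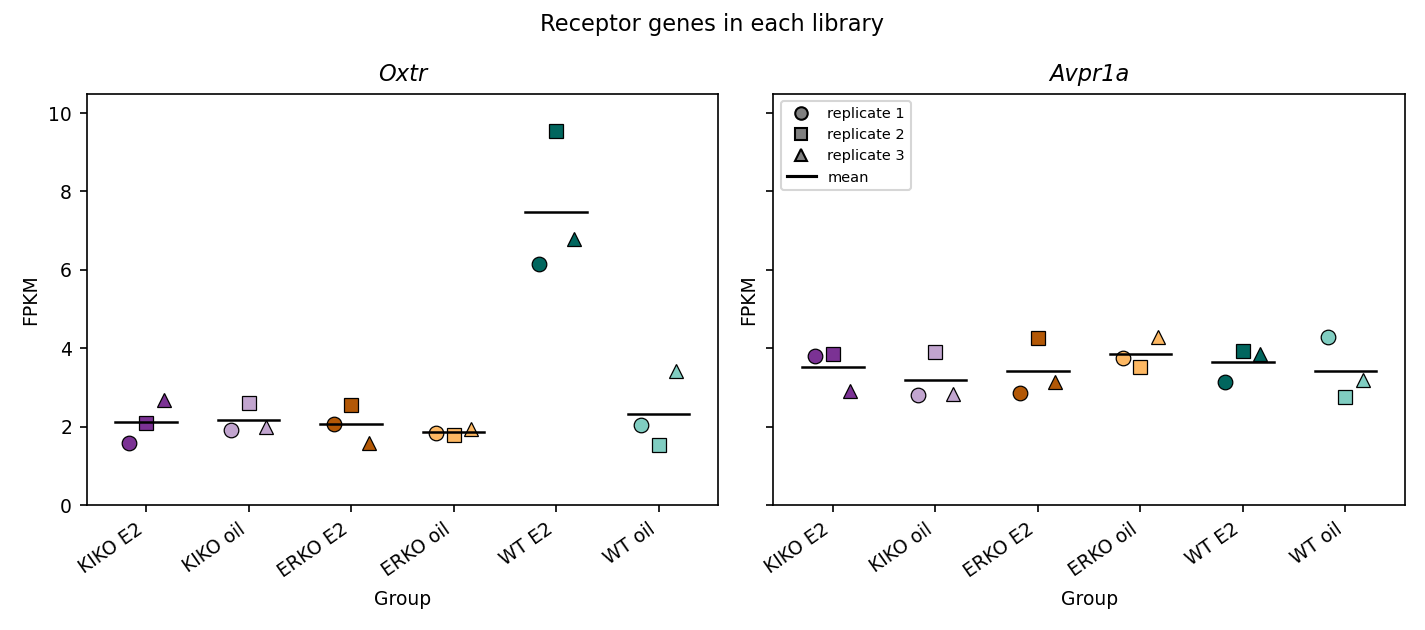
FPKM of Oxtr (left) and Avpr1a (right) in each library, by group, with 1 point per library and a line at the group mean. The WT E2 libraries hold 6.14 to 9.54 FPKM of Oxtr and no other library exceeds 3.41 FPKM, while Avpr1a lies between 2.77 and 4.29 FPKM in all groups.

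By group mean the order for Oxtr was WT E2, WT oil, KIKO oil (2.17 ± 0.370 FPKM, SD), KIKO E2 (2.11 ± 0.561), ERKO E2 (2.06 ± 0.483) and ERKO oil (1.86 ± 0.0842). Every neighbouring pair below WT E2 overlapped.

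Avpr1a, the receptor through which vasopressin acts in most of the brain, passed the threshold in none of the 12 comparisons. It had 3.80, 3.86 and 2.90 FPKM in KIKO E2 and 2.81, 3.90 and 2.83 FPKM in KIKO oil libraries. It had 2.87, 4.26 and 3.15 FPKM in ERKO E2 and 3.74, 3.52 and 4.28 FPKM in ERKO oil libraries. It had 3.15, 3.92 and 3.86 FPKM in WT E2 and 4.29, 2.77 and 3.19 FPKM in WT oil libraries. All groups overlapped, and the whole range was 1.55-fold. By mean the order was ERKO oil (3.85 ± 0.390 FPKM, SD), WT E2 (3.64 ± 0.428), KIKO E2 (3.52 ± 0.538), ERKO E2 (3.42 ± 0.736), WT oil (3.42 ± 0.789) and KIKO oil (3.18 ± 0.626). The 12 log2 changes ran from -0.22 to 0.26, with adjusted p from 0.615 to 1. For E2 against oil in WT the change was 0.08 ± 0.16, and its 95% interval, -0.26 to 0.43, lay below that of Oxtr.

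Avpr1b was listed at 0 in 13 of 18 libraries. In the other 5, which were KIKO E2 2 and 3, KIKO oil 2, ERKO E2 1 and WT E2 2, its 0.00972 to 0.0172 FPKM corresponded to 1 fragment each. A count of 0 allows up to 0.0347 to 0.0602 FPKM, depending on the library (3 fragments, counting error only), so all values lie under what the depth can show. The gene was below the filter on low values. In the fit with no filter its adjusted p ran from 0.940 to 1 over the 12 comparisons, which at these counts says nothing about a difference.

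**Figure D5:**
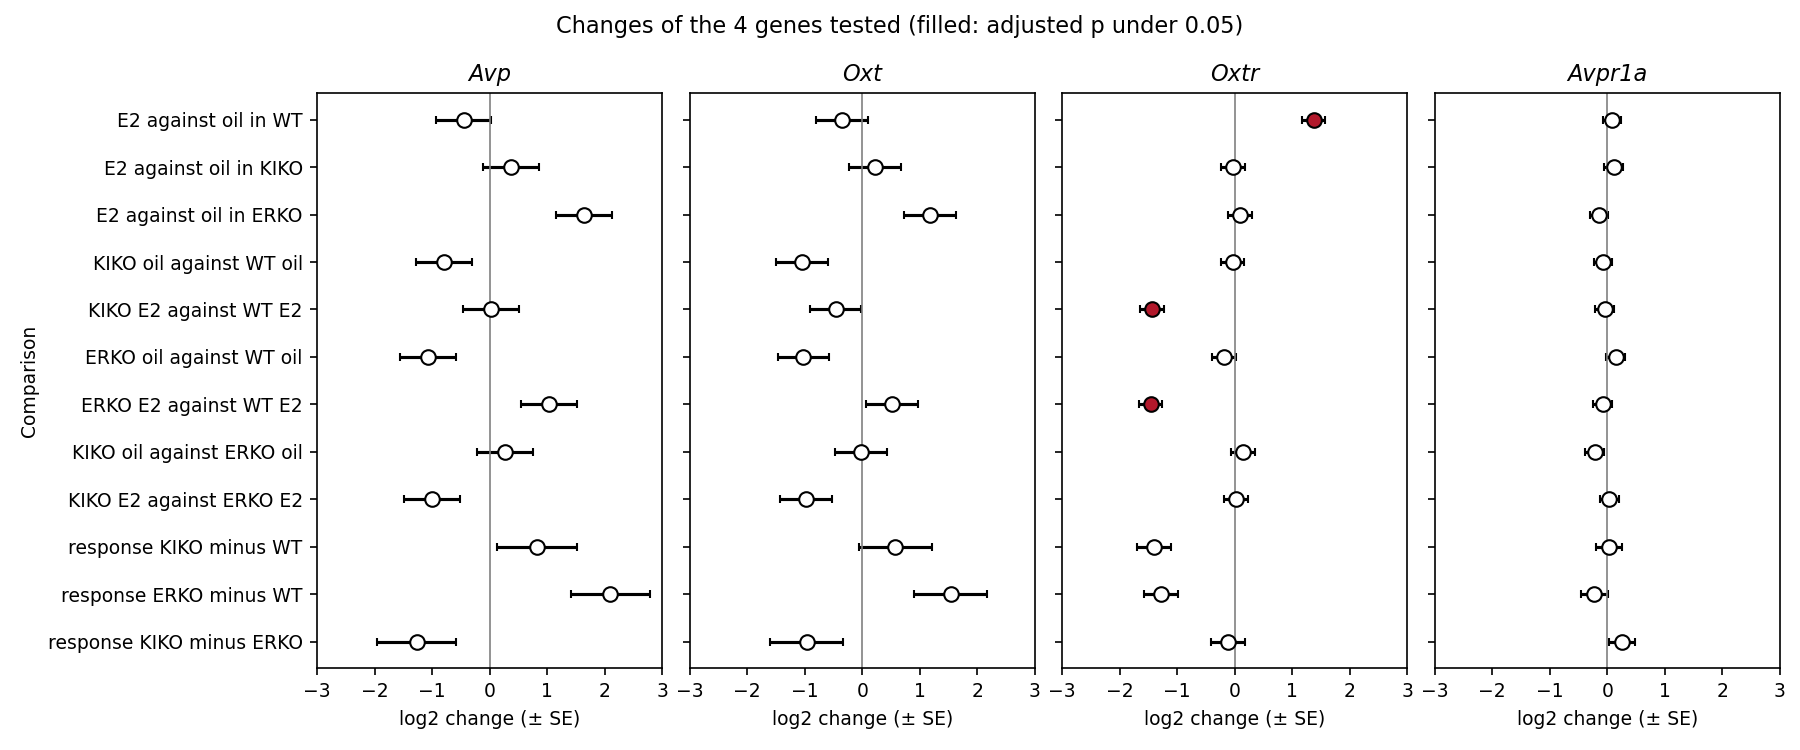
Log2 change ± SE (limma, log2(FPKM + 1)) of Avp, Oxt, Oxtr and Avpr1a in the 12 comparisons, with filled points where the adjusted p was under 0.05. The filled points are Oxtr for E2 against oil in WT (1.37), KIKO E2 against WT E2 (-1.44) and ERKO E2 against WT E2 (-1.46).

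Genes around these members in synthesis and signalling were examined as a list of 26, of which 23 passed the filter. In WT, 2 rose and 1 fell with E2, and the median change of the 23 was 0.03, against 0.01 over all genes, of which 0.785% passed. Pgr, the progesterone receptor, had 13.9, 15.5 and 18.1 FPKM in WT E2 and 3.29, 4.59 and 5.44 FPKM in WT oil libraries (1.64 ± 0.19, adjusted p = 0.000166). Rasd1, a small G protein also called Dexras1 and known in rats to respond to osmotic stimuli in hormone neurons, had 30.6, 33.6 and 28.6 FPKM in WT E2 and 14.0, 9.36 and 11.0 FPKM in WT oil libraries (1.37 ± 0.25, adjusted p = 0.0113). Pcsk1, a convertase that cuts peptide precursors, had 17.1, 18.9 and 26.6 FPKM in WT E2 and 32.1, 43.7 and 59.3 FPKM in WT oil libraries (-1.06 ± 0.23, adjusted p = 0.0377). Each of the 3 was apart between the groups, as were 15.8% of all genes.

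In the mutants, 0 of the 23 passed for E2 against oil, with 1 at an unadjusted p under 0.05 in KIKO and 1 in ERKO. Pcsk1 gave -0.65 ± 0.23 in KIKO (unadjusted p = 0.0114, adjusted p = 1) and -0.25 ± 0.23 in ERKO. Pgr and Rasd1 were lower under E2 in both mutants than in WT, by log2 changes of -1.45 ± 0.19 and -1.11 ± 0.25 in KIKO (adjusted p = 0.000619 and 0.0451) and -1.81 ± 0.19 and -1.20 ± 0.25 in ERKO (adjusted p = 4.25e-05 and 0.0233). Under oil, Esr1 was lower in ERKO (-1.49 ± 0.32, adjusted p = 0.0367). For Pgr the E2 response of ERKO minus that of WT passed as well (-1.97 ± 0.26, adjusted p = 0.00183). Enzymes of hormone maturation and breakdown that did not pass in WT included Pam, which amidates both hormones (-0.19 ± 0.09, adjusted p = 0.493), and Lnpep, the oxytocinase (0.14 ± 0.63, adjusted p = 0.984). The signalling genes Gnaq, Gna11 and Plcb1 gave -0.00 ± 0.19, 0.03 ± 0.10 and 0.29 ± 0.15 (adjusted p = 0.999, 0.979 and 0.551). Avpr2, the renal vasopressin receptor, was at 0 to 0.710 FPKM and below the filter.

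Among the marker lists, 1 of 12 tested magnocellular and paraventricular genes passed in 1 of the 12 comparisons. Brs3, an orphan bombesin-like receptor, had 3.21, 3.81 and 5.37 FPKM in ERKO E2 and 1.60, 1.54 and 1.82 FPKM in WT E2 libraries (0.93 ± 0.16, adjusted p = 0.00645). No suprachiasmatic gene passed in limma in any comparison, of 12 tested, though 0 to 6 had an unadjusted p under 0.05, and the list medians ran from -1.28 to 0.68, against -0.03 to 0.04 over all genes. No dorsomedial and lateral (5 tested), pituitary (7 tested) or pituicyte and tanycyte gene (12 tested) passed either, with at most 1, 2 and 3 at an unadjusted p under 0.05. Over the 12 comparisons, in which 0% to 1.43% of all genes passed, arcuate genes (14 tested) passed 7 times higher, all Kiss1 or Tacr3, and 7 times lower, which were Kiss1, Tacr3, Tac2, Gal and Th. Of 8 ventromedial genes tested, Gldn alone passed, higher in 4 comparisons that all hold KIKO E2.

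The genes whose pattern over the 18 libraries was most like that of each member were picked by Spearman's rho of FPKM among 13836 genes averaging 1 FPKM or more. For Oxt they were Pafah1b3 (rho 0.913), Eif6 (0.909), Fam96b (0.909), Gipc1 (0.905) and Lsm10 (0.897). For Avp they were Gm5151 (0.818), Rhog (0.787), Mpv17l2 (0.785), 1700003F12Rik (0.781) and Ppapdc1a (0.777), all below the best of Oxt. For Oxtr they were Sez6l (0.855), Zfand2a (0.814), Rab6b (0.810), Vps37c (0.791) and Arhgef7 (0.785). For Avpr1a they were Vps8 (0.810), Exoc6b (0.791), Zfp407 (0.785), Rims3 (0.771) and Polr3b (0.754). Without ERKO E2 3 the 20 values ran from 0.735 to 0.897. The points share libraries and depth, and these are descriptions of likeness over 18 libraries.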

How the data were processed

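RNA from 18 arcuate nucleus samples was sequenced on an Illumina HiSeq2500, per the labels' protocols. The authors deposited 1 table per library with FPKM per gene and its confidence bounds, also in FPKM. TopHat2 2.0, Cuffdiff and mm10 are named in the submitters' processing notes, and the annotation and strand setting are not given in the sources used here. Gene starts in the tables lay within 1000 bases of the RefSeq GRCm38 start for 990 of 20590 symbols, so positions printed here come from the GENCODE and RefSeq annotations. Entries sharing a symbol (23699 entries, 23235 symbols) were summed. Genes averaging 0.5 FPKM or more, without small RNA genes, were fitted on log2(FPKM + 1) with limma 3.58.1 (R 4.3.3), with 6 group means, 12 residual degrees of freedom, a variance trend and robust moderation, in two-sided tests adjusted by Benjamini-Hochberg over 14774 genes. The fit was tested on simulated data. The pseudocount of 1 understates changes of genes with low FPKM. Correlations used permutation (Python 3.11.15, scipy 1.17.1). Transcript lengths came from GENCODE for 86.8% of tested genes. Fragment numbers were inferred from the bounds and not tested, and the floors cover counting error only. The intervals given for log2 changes come from the limma fit and rest on the spread between libraries. The genes described, the 8 gene lists and the tests were chosen with earlier results of these data known. The text covers all members over the comparisons, Avpr1a and Avpr1b mostly as ranges. It also names Esr1, up to 4 genes of a list past the threshold, and the 5 genes most like each member. Pam, Lnpep, Gnaq, Gna11, Plcb1, Avpr2, Sim1, Otp, Trh, Calb1, Calb2, Arnt2, Scgn, Vip, Nms, Cga, Tshb, Lhb, Pitx1, Prl and Gh were named outside that rule. Alternatives covered the pseudocount, filter, scaling, variance model, weights, libraries fitted and a replicate block, and 1 covariate was added after seeing the data.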

Additional observations from a re-analysis of the deposited data

How the results depend on the processing

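For the 4 members tested in 12 comparisons there were 868 alternative values, of which 809 kept direction and side of the threshold, 49 turned sign, none of them past the threshold, 9 newly passed and 1 no longer passed. The cause was not tested where a call moved. With library weights, 1 member passed in ERKO oil against WT oil (Oxt) and 1 in the E2 response of KIKO minus WT (Oxtr). Among all 14774 genes, 2932 and 59 passed there. With only the groups compared, 1 member passed in ERKO oil against WT oil (Oxt) and 0 in ERKO E2 against WT E2. The numbers over all genes were 1661 and 13. With the short-against-long transcript level as a covariate, 1 member passed in the response of KIKO minus WT (Oxtr), and 84 of all genes did. Leaving out 1 library gave 0 to 1 members past the threshold in KIKO oil against WT oil, ERKO oil against WT oil, and the responses of KIKO minus WT and ERKO minus WT.

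The widest turn was that of Oxt in ERKO E2 against WT E2, which was 0.52 in the fit of all libraries and turned to -0.21 both with weights and without ERKO E2 3. Oxtr in KIKO E2 against ERKO E2 was -0.0038 with median-ratio size factors, -0.067 with quantile normalization, -0.158 with weights and -0.059 with the covariate. With quantile normalization Avpr1a was -0.058 in KIKO E2 against ERKO E2 and -0.016 in the response of KIKO minus WT. With weights Oxtr and Avpr1a were 0.043 and 0.075 in KIKO oil against WT oil, Avp and Avpr1a -0.051 and 0.034 in KIKO E2 against WT E2, Avpr1a 0.011 in ERKO E2 against WT E2, and Avpr1a -0.042 in the response of KIKO minus WT. With the covariate Avp was -0.00043 in KIKO oil against ERKO oil.

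Leaving out 1 library at a time turned these ranges across 0. Oxtr ran from -0.163 to 0.097 for E2 in KIKO, -0.024 to 0.205 for E2 in ERKO, -0.220 to 0.184 in KIKO oil and -0.362 to 0.042 in ERKO oil against WT oil, -0.109 to 0.152 in KIKO E2 against ERKO E2, and -0.251 to 0.0097 for the response of KIKO minus ERKO. Avp ran from -0.126 to 0.221 in KIKO E2 against WT E2 and -0.201 to 0.637 in KIKO oil against ERKO oil. Oxt ran from -0.211 to 0.894 in ERKO E2 against WT E2 and -0.270 to 0.116 in KIKO oil against ERKO oil. Avpr1a ran from -0.025 to 0.221 for E2 in WT, -0.195 to 0.064 in KIKO oil, -0.121 to 0.060 in KIKO E2 and -0.209 to 0.013 in ERKO E2 against WT, -0.055 to 0.167 in KIKO E2 against ERKO E2, and -0.106 to 0.152 for the response of KIKO minus WT.

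The replicate numbers did not pair the libraries. Deviations of same-numbered libraries correlated at a median of -0.061, above 0.1 in 11 of 45 pairs, and 6 of 18 libraries correlated best with their own number. With the number as a block, Oxtr for E2 in WT was 1.37 (adjusted p = 0.00616), and no call of a member changed. The correlation of Avp with Oxt kept its sign and its side of the threshold in all 5 alternatives, at r = 0.786 to 0.920. Depth limits Avpr1b, at 0 or 1 fragment, more than any other member.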
